A study of Danio rerio with 21 samples.

Results

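The circadian clock genes of the zebrafish ventricle were followed from the uninjured heart through 90 days after cryoinjury, in which part of the ventricle wall is frozen. The list held 40 genes, chosen by name as the core of the clock: 10 of an activating arm, 22 of a repressing arm and 8 output factors. The arms follow gene families. The repressing arm took in every cryptochrome of the list, *cry4* and *cry-dash* included, and 2 kinases of Period proteins. Whether each member represses the clock was not tested. Of these, 39 had a probe set of their own symbol in the annotation table of the array, and for the gene with more than 1 probe set (*per2*) the one with the highest mean signal stood for the gene. Tests were run on probe sets with a log2 signal over 6 in 1 or more arrays, which left 38 of the 40 genes and 35783 of 75212 probe sets (here also called features). Of the other 2, 1 had no probe set of its symbol in the table used here, and *nr1d4a*, a fish paralog of the Rev-erb family, was not tested because its highest log2 signal was 5.25. The samples were 21 pools of ventricle RNA, each from 5 fish of the TU strain aged 10 to 11 months. Every pool had 1 array, of the type Affymetrix Zebrafish Gene 1.0 ST. There were 7 groups of 3 pools, namely hearts without injury (control) and cryoinjured hearts at 4 hours (hpi) and 1, 3, 7, 14 and 90 days post-injury (dpi). A supplementary table of the study names the controls sham, whereas its methods and the sample labels name them uninjured. The hour of day at which each pool was collected is not given in the sources used here, and its part in any difference below was not tested.

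The vertebrate clock is a feedback loop of transcription. Clock and its paralog Npas2 pair with Bmal proteins and switch on genes through E-box elements, among them the Period and Cryptochrome genes, whose proteins return to the nucleus and block the pair. A second loop sets the Bmal genes, which Ror receptors activate and Rev-erb receptors (the *nr1d* genes) repress through shared sites. The output factors Dbp, Tef and Hlf activate and Nfil3 represses genes through another kind of site, the D-box, and so pass the rhythm on to other genes. In zebrafish the clocks of peripheral tissues, the heart included, run on their own and can be set directly by light.

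Array medians lay between 5.14 and 5.20 on the log2 scale, and the correlation over features was 0.952 to 0.977 between pools of the same group and 0.844 to 0.969 between pools of different groups. Log2 signals compare a gene between pools and do not compare genes with each other. A total of 26 cardiomyocyte marker genes kept a mean log2 signal of 10.94 to 11.42 in every pool, as the labelled tissue would have. All values and tests below are from the deposited log2 signals in 1 limma fit of the 7 groups, with p values adjusted over all 35783 tested features. A call, higher or lower, needs an adjusted p under 0.05. The 6 comparisons with control share the same 3 control pools, so they are not independent of each other. In RNA of a whole ventricle, fewer cells of a type and less RNA per cell cannot be told apart.

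Most repressing and output genes that were called were lower than in the uninjured heart, and most activating genes that were called were higher at 4 hpi and from 7 to 90 dpi. At 7 dpi 12 of 21 repressing and 3 of 8 output genes were lower (8.02% of all features were), and 5 of 9 activating genes were higher (14.5% of all features were). Members of both arms also went the other way: *roraa* and *rorab*, 2 of the 9 activating genes, were lower from 4 hpi to 14 dpi, and 3 of the 21 repressing genes were higher at 4 hpi, at 14 dpi and at 90 dpi, drawn from *cry3a*, *cry3b*, *cry4* and *nr1d4b*. The repressing share, 14.3% each time, stood beside 21.3%, 9.39% and 11.2% of all features higher. Of the genes called higher, *nr1d4b* and *bmal2* passed the signal filter only through pools taken after injury. They could enter the tests only by being raised in such pools. *roraa* and *rorab* were 22.2% of their arm, beside 17.5%, 16.5%, 14.9%, 8.02% and 4.57% of all features lower. Of the 38 genes tested, 21 were lower than control at 1 or more times and never higher, 10 were higher and never lower, *cry3b* was called in both directions and 6 were called at no time. The same counts were not made over all features, of which the F test over the 7 groups called 65.2%. They are thus only a description of the members. *cry2*, a cryptochrome, and *dbpa*, a D-box activator, were lower at all 6 times.

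At 4 hpi 13 of the 38 genes were lower (34.2%, where 17.5% of all features were lower) and 8 were higher (21.1%, against 21.3% of all features). At 1 dpi 17 were lower (44.7%, against 16.5%) and only *bmal2* was higher (2.63%, against 22.0%). At 3 dpi 12 were lower (31.6%, against 14.9%) and 0 were higher by limma (against 20.7%), with 0 higher at an unadjusted p under 0.05. The share of lower clock genes thus stood above that of all features at these 3 times, and the share of higher ones was near the background at 4 hpi and under it at 1 and 3 dpi. At 7 dpi 17 genes were lower (44.7%, against 8.02%) and 7 higher (18.4%, against 14.5%). At 14 dpi 15 were lower (39.5%, against 4.57%) and 9 higher (23.7%, against 9.39%). At 90 dpi 13 were lower (34.2%, against 7.68%) and 10 higher (26.3%, against 11.2%). The number of changed features in the whole transcriptome fell from 4 hpi to 14 dpi, whereas the number of changed clock genes was 21, 18, 12, 24, 24 and 23 at the successive times. This contrast depended on the threshold. At an adjusted p under 0.001 the clock genes numbered 6, 9, 4, 4, 1 and 6. All features then numbered 5170, 5767, 5140, 1685, 660 and 419. In the fit that took only the 6 arrays compared, the count at 90 dpi was 13 in place of 23. Over all features that fit called 2229 in place of 6770. At 14 dpi the count was 15 without 14 dpi replicate 1, and at 90 dpi it was 15 without control replicate 2 and 14 without 90 dpi replicate 1. Over all features the first of these fits called 3077 in place of 4995. The other fits called 4086 and 7734 in place of 6770. Counts in 1 direction also changed when 1 pool was left out. At 1 dpi 5 genes were higher without replicate 2 and 2 without control replicate 3, in place of 1. Over all features 6995 and 6892 were higher in these fits, in place of 7872. At 7 dpi 3 were higher without control replicate 1 and 4 without 7 dpi replicate 3, in place of 7, and 11 were lower without 7 dpi replicate 2, in place of 17. Over all features 4326 and 4085 were higher, in place of 5202, and 2143 lower, in place of 2871. The 15 lower genes at 14 dpi became 9 without 14 dpi replicate 1, where the lower features of the whole array went from 1635 to 959. For the 13 lower at 90 dpi the count was 7 without control replicate 2, 6 without 90 dpi replicate 1 and 8 without 90 dpi replicate 2. Over all features the lower ones numbered 1468, 3523 and 1218 in these fits, in place of 2748. Without 90 dpi replicate 1 the clock genes and all features thus moved in opposite directions.

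**Figure D1:**
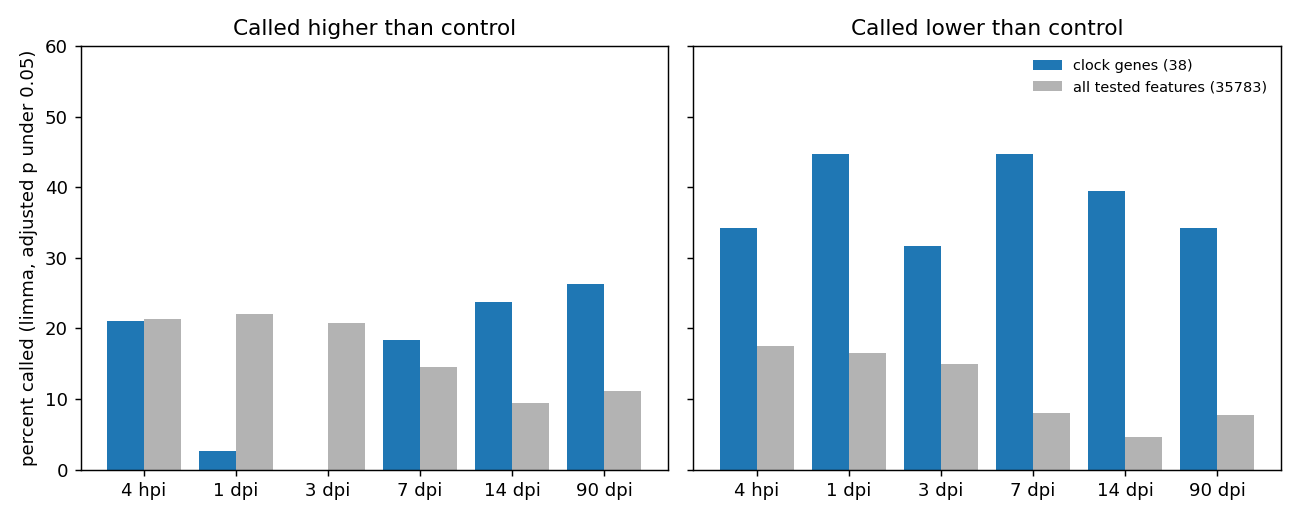
Percent of the 38 clock genes (blue) and of all 35783 tested features (grey) called higher (left) or lower (right) than the 3 control pools at each time, limma adjusted p under 0.05. The blue bars of lower genes stand above the grey bars at all 6 times, with 44.7% against 8.02% at 7 dpi, and no clock gene was higher at 3 dpi.

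The median log2 fold change of the 38 genes was -0.24, -0.87, -0.32, -0.55, -0.14 and -0.33 from 4 hpi to 90 dpi, beside 0.05, 0.05, 0.02, 0.02, 0.06 and 0.01 for all tested features. Split by role, the activating arm had a median of 0.44 at 4 hpi, 0.21 at 1 dpi, -0.26 at 3 dpi, 0.84 at 7 dpi, 0.96 at 14 dpi and 0.85 at 90 dpi, over 9 genes. The repressing arm, with 21 genes, had a median below 0 at every time, from -0.32 at 3 dpi to -0.98 at 1 dpi, and stood at -0.95 at 90 dpi. The 8 output genes had medians from -0.17 at 4 hpi to -0.92 at 1 dpi. The activating and repressing medians thus lay on opposite sides of 0 at every time but 3 dpi. Over all features the split of higher and lower calls depended on the scaling of the arrays. Quantile normalization gave 6358 higher and 7869 lower features at 4 hpi in place of 7636 and 6270. It gave 6550 and 7639 at 1 dpi in place of 7872 and 5916, and 2930 and 2285 at 14 dpi in place of 3360 and 1635. Under it the clock genes numbered 8 higher and 15 lower at 4 hpi, 1 higher and 20 lower at 1 dpi, and 9 higher and 15 lower at 14 dpi.

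Markers of several cell types changed at the same times. Over all features 21.3%, 22.0%, 20.7%, 14.5%, 9.39% and 11.2% were higher from 4 hpi to 90 dpi. Those lower made up 17.5%, 16.5%, 14.9%, 8.02%, 4.57% and 7.68%. Leukocyte markers were higher for 13, 16, 16, 13, 12 and 7 of 16 genes from 4 hpi to 90 dpi and lower for 0 of 16 at each time. The mean log2 signal of these 16 markers ranged from 6.13 to 6.30 in the control pools, from 8.85 to 9.38 at 1 dpi and from 6.73 to 7.07 at 90 dpi. Neutrophil markers were higher for 8, 9, 10, 4, 4 and 2 of 11 genes and lower for 1 at each time. *mpeg1.1* stood in both the neutrophil and the macrophage list and was counted in each. It was 1 of the 2 neutrophil markers higher at 90 dpi, beside *ncf1* (limma adjusted p = 0.0489). Macrophage markers were higher for 5, 11, 11, 10, 8 and 6 of 11 and lower for 1 at 4 hpi, with a median log2 fold change of 0.79 at 90 dpi. Of 18 fibroblast and epicardium markers, 7 were lower and 2 higher at 4 hpi, 2 lower and 8 higher at 1 dpi, and 16 were higher at 3 dpi, 14 at 7 dpi, 13 at 14 dpi and 2 at 90 dpi. Cardiomyocyte markers were lower for 8, 15, 14, 4, 2 and 2 of 26 genes from 4 hpi to 90 dpi, and higher for 3, 1, 2, 2, 1 and 0. Their mean ranged from 11.29 to 11.42 in control, from 10.99 to 11.12 at 1 dpi and from 11.30 to 11.34 at 90 dpi. Endothelium markers were lower for 6, 4, 6, 3, 2 and 1 of 19 genes (31.6%, 21.1%, 31.6%, 15.8%, 10.5% and 5.26%). Those higher numbered 4, 2, 2, 0, 1 and 0 (21.1%, 10.5%, 10.5%, 0%, 5.26% and 0%), near or under the shares of all features. Erythrocyte markers were lower for 1 to 3 of 12 genes at each time, and higher for 1 at 4 hpi, 1 at 1 dpi and 0 later. The lower erythrocyte markers made up 16.7%, 8.33%, 16.7%, 8.33%, 25% and 16.7% from 4 hpi to 90 dpi. This was near or under the share of all features up to 7 dpi and above it at 14 and 90 dpi. The median log2 fold change of the erythrocyte markers was 0.04 at 4 hpi, -0.55 at 14 dpi and -0.51 at 90 dpi. The part of the cell makeup in the changes of clock genes was not tested.

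**Figure D2:**
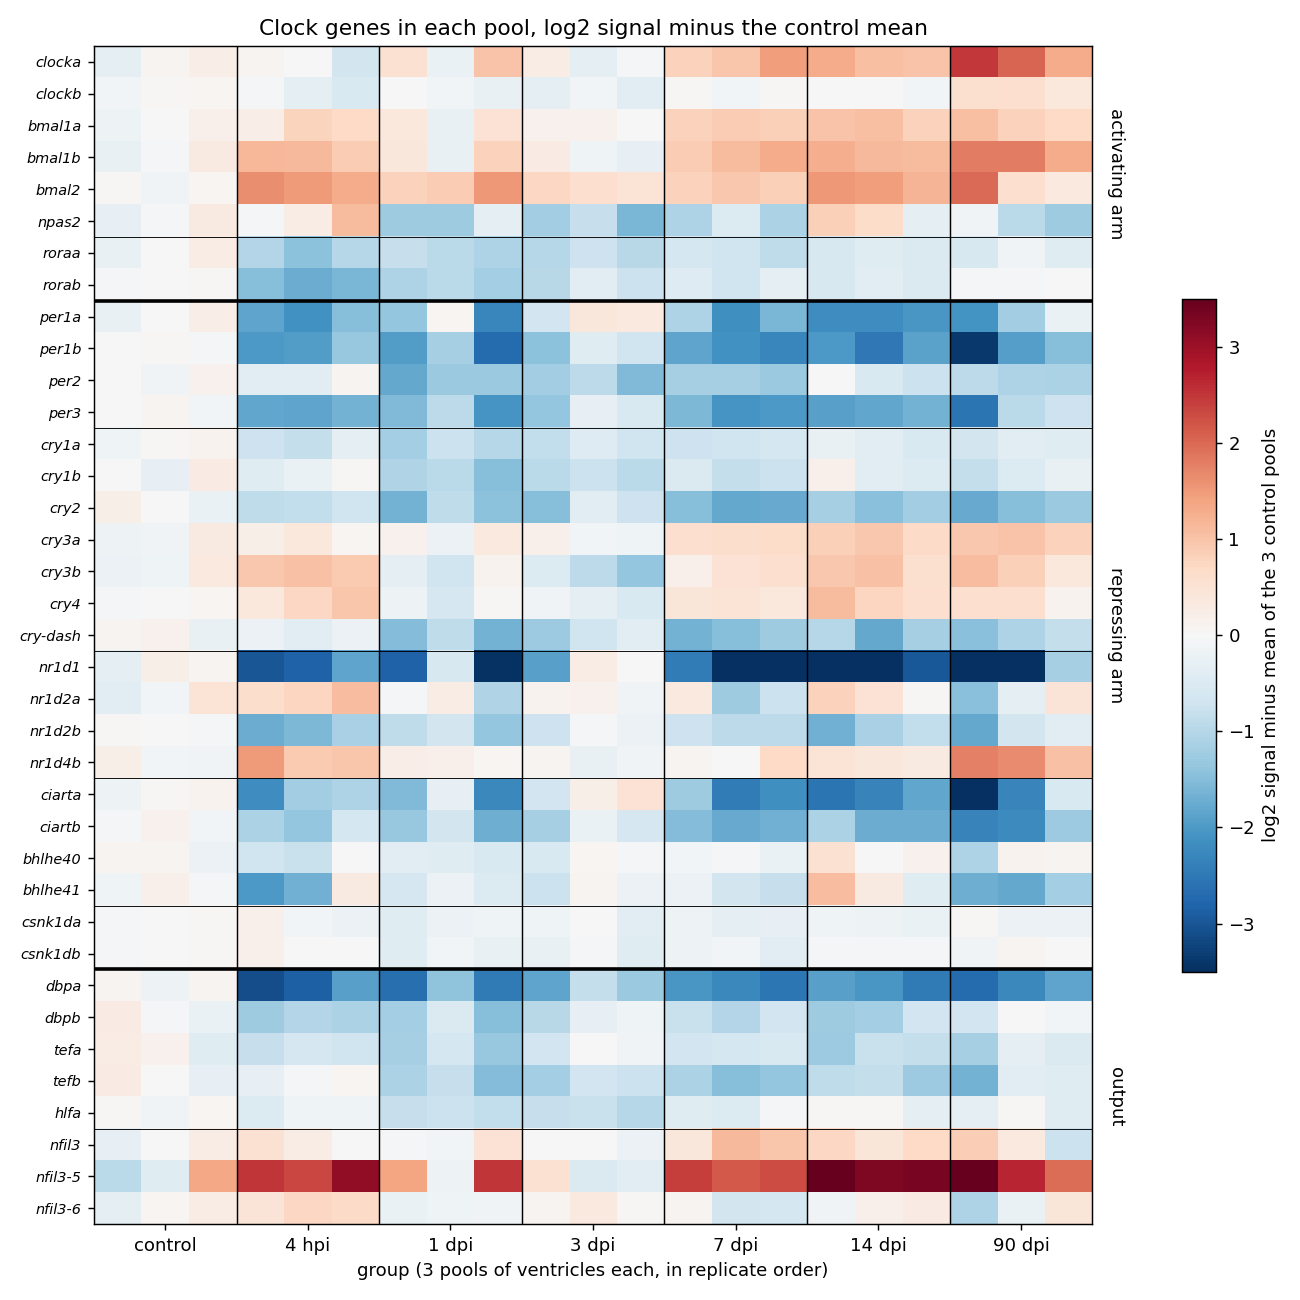
Each row is 1 of 37 of the tested clock genes, ordered by role, and each column 1 of the 21 pools, 3 per group. Colour gives the log2 signal minus the mean of the 3 control pools, red above and blue below it, and values past either end of the scale take the end colour: the *per1b*, *per3*, *nr1d1*, *ciarta* and *dbpa* rows are blue and the *bmal1b* and *nfil3-5* rows red at 4 hpi and from 7 dpi on, and in several rows the pools of a group differ at 1, 3 and 90 dpi.

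The Bmal1 paralogs rose at 4 of the 6 times. *bmal1b* and *bmal1a*, paralogs of the Bmal1 gene whose protein is the obligate partner of Clock, were both higher at 4 hpi and at 7, 14 and 90 dpi, and not called at 1 and 3 dpi. The *bmal1b* log2 signals were 6.19, 6.37 and 6.76 in the control pools, 7.60, 7.57 and 7.33 at 4 hpi, 6.84, 6.18 and 7.25 at 1 dpi, and 6.74, 6.30 and 6.14 at 3 dpi. Later values were 7.34, 7.54 and 7.75 at 7 dpi, 7.72, 7.57 and 7.56 at 14 dpi, then 8.23, 8.24 and 7.75 at 90 dpi. Every pool lay above all 3 control pools at 4 hpi, 7 dpi, 14 dpi and 90 dpi, and the groups overlapped at 1 dpi and 3 dpi. *bmal1b* (probe set 13241402) had log2 fold changes of 1.06 at 4 hpi, 1.10 at 7 dpi, 1.18 at 14 dpi and 1.64 at 90 dpi (SE 0.23, limma adjusted p from 4.3e-04 to 0.00275). *bmal1a* had log2 signals of 5.66, 5.83 and 6.01 in the control pools, 6.06, 6.61 and 6.54 at 4 hpi, 6.19, 5.58 and 6.35 at 1 dpi, and 5.98, 5.99 and 5.82 at 3 dpi. Later pools gave 6.63, 6.71 and 6.68 at 7 dpi, 6.84, 6.89 and 6.63 at 14 dpi, then 6.88, 6.64 and 6.53 at 90 dpi. The pools of *bmal1a* (probe set 13161236) stood clear of the controls at 4 hpi, 7 dpi, 14 dpi and 90 dpi. Its log2 fold changes were smaller, with 0.58 at 4 hpi, 0.84 at 7 dpi, 0.96 at 14 dpi and 0.85 at 90 dpi (SE 0.18, limma adjusted p from 0.00205 to 0.0174).

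*bmal2*, another Bmal gene, was the only clock gene called higher at 1 dpi. Signals of *bmal2* in log2 units were 4.58, 4.41 and 4.61 in the control pools, 6.17, 6.01 and 5.84 at 4 hpi, 5.34, 5.42 and 6.04 at 1 dpi, and 5.26, 5.13 and 5.01 at 3 dpi. From 7 dpi on they were 5.33, 5.48 and 5.37 at 7 dpi, 6.04, 5.99 and 5.72 at 14 dpi, then 6.52, 5.11 and 4.88 at 90 dpi. All pools stood above the controls at every time, and at 90 dpi replicate 1 was far above replicates 2 and 3. *bmal2* (probe set 13062760) had log2 fold changes of 1.47 at 4 hpi, 1.07 at 1 dpi, 0.86 at 7 dpi, 1.38 at 14 dpi and 0.97 at 90 dpi (SE 0.29, limma adjusted p from 7.0e-04 to 0.0416), and 0.60 at 3 dpi did not pass (adjusted p = 0.12). All its control signals lay below 5.16, the median of all values, a range in which arrays compress differences. Only pools taken after injury exceeded the log2 signal of 6 needed for testing. They had 6.17 and 6.01 at 4 hpi, 6.04 at 1 dpi, 6.04 at 14 dpi and 6.52 at 90 dpi. *bmal2* thus entered the tests only through groups where it was higher, and its calls are only a description.

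*clocka*, 1 of a pair of zebrafish genes for the Clock protein, rose late. In log2 units *clocka* measured 6.09, 6.52 and 6.67 in the control pools, 6.53, 6.45 and 5.79 at 4 hpi, 6.95, 6.20 and 7.43 at 1 dpi, and 6.70, 6.11 and 6.39 at 3 dpi. In the last 3 groups they were 7.23, 7.40 and 7.88 at 7 dpi, 7.73, 7.47 and 7.42 at 14 dpi, then 8.89, 8.47 and 7.73 at 90 dpi. The first 4 groups overlapped, and all pools from 7 dpi on lay above the controls. The log2 fold change of *clocka* (probe set 13095489) was 1.07 at 7 dpi, 1.11 at 14 dpi and 1.93 at 90 dpi (SE 0.32, limma adjusted p from 9.3e-04 to 0.0257), the last a 3.81-fold rise. Its paralog *clockb* (probe set 12946331) was called only at 90 dpi, with a log2 fold change of 0.51 at 90 dpi (SE 0.12, limma adjusted p = 0.00959). Its pools ranged from 8.84 to 8.99 in control and from 9.29 to 9.53 at 90 dpi, without overlap. *npas2* (probe set 13194101), the Clock paralog that also pairs with Bmal proteins, moved the other way. For *npas2* the log2 signals were 8.10, 8.33 and 8.70 in the control pools, 8.33, 8.65 and 9.48 at 4 hpi, 7.14, 7.12 and 8.03 at 1 dpi, and 7.15, 7.57 and 6.77 at 3 dpi. After 3 dpi they were 7.29, 7.91 and 7.26 at 7 dpi, 9.22, 9.03 and 8.03 at 14 dpi, then 8.26, 7.42 and 7.14 at 90 dpi. Its pools lay below the controls at 1 dpi, 3 dpi and 7 dpi, but only the log2 fold change of -1.21 at 3 dpi (SE 0.37, limma adjusted p = 0.0172) passed. With 1 pool left out some of these calls no longer passed, and the log2 fold changes without a pool are given as a range. *bmal1a* lost its call at 4 hpi without control replicate 1 or 4 hpi replicate 2 or 3 (0.47 to 0.75, adjusted p up to 0.0762). *bmal2* lost its call at 7 dpi without control replicate 1, 2 or 3 or 7 dpi replicate 1, 2 or 3 (0.80 to 0.90, adjusted p up to 0.112) and at 90 dpi without control replicate 1, 2 or 3 or 90 dpi replicate 1 (0.46 to 1.28, adjusted p up to 0.0853). *clocka* lost its call at 7 dpi without control replicate 1 or 7 dpi replicate 3 (0.88 to 1.21, adjusted p up to 0.0958) and at 14 dpi without control replicate 1 or 2 or 14 dpi replicate 1, 2 or 3 (0.94 to 1.23, adjusted p up to 0.101). *npas2* lost its call at 3 dpi without control replicate 3 or 3 dpi replicate 3 (-1.42 to -1.02, adjusted p up to 0.0792).

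*roraa* and *rorab*, paralogs of the Rora receptor that activates Bmal genes, had their largest falls at 4 hpi and a smaller difference from control at each later time. The *rorab* log2 signals were 7.75, 7.77 and 7.83 in the control pools, 6.28, 6.04 and 6.19 at 4 hpi, 6.71, 6.84 and 6.59 at 1 dpi, and 6.82, 7.41 and 7.04 at 3 dpi. At the later times they were 7.32, 7.08 and 7.45 at 7 dpi, 7.22, 7.41 and 7.29 at 14 dpi, then 7.73, 7.72 and 7.76 at 90 dpi. All pools of *rorab* lay below every control pool through 14 dpi and overlapped them at 90 dpi. The log2 fold change of *rorab* (probe set 13237196) was -1.61 at 4 hpi, -1.07 at 1 dpi, -0.69 at 3 dpi, -0.50 at 7 dpi and -0.48 at 14 dpi (SE 0.13, limma adjusted p from 1.7e-07 to 0.0254), and -0.04 at 90 dpi (adjusted p = 0.858). *roraa* had log2 signals of 9.03, 9.29 and 9.53 in the control pools, 8.25, 7.86 and 8.28 at 4 hpi, 8.48, 8.34 and 8.21 at 1 dpi, and 8.28, 8.57 and 8.30 at 3 dpi. Pools of the later times gave 8.66, 8.59 and 8.40 at 7 dpi, 8.71, 8.85 and 8.78 at 14 dpi, then 8.72, 9.16 and 8.87 at 90 dpi. *roraa* (probe set 13158066) likewise stood below the controls without overlap until 14 dpi. Its log2 fold changes were -1.15 at 4 hpi, -0.94 at 1 dpi, -0.90 at 3 dpi, -0.73 at 7 dpi and -0.50 at 14 dpi (SE 0.15, limma adjusted p from 1.7e-05 to 0.0368), and -0.37 at 90 dpi did not pass (adjusted p = 0.104). *rorab* lost its call at 7 dpi without 7 dpi replicate 2 (-0.58 to -0.40, adjusted p up to 0.0732) and at 14 dpi without control replicate 1, 2 or 3 or 14 dpi replicate 1 or 3 (-0.53 to -0.43, adjusted p up to 0.0912). *roraa* lost its call at 14 dpi without control replicate 2 or 3 or 14 dpi replicate 1, 2 or 3 (-0.63 to -0.38, adjusted p up to 0.157).

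Period genes encode the repressors that give the loop its delay, and all 4 fell. *per1b* and *per3* were lower at every time but 3 dpi. Signals of *per1b* in log2 units were 9.21, 9.24 and 9.15 in the control pools, 7.19, 7.24 and 7.87 at 4 hpi, 7.25, 8.03 and 6.52 at 1 dpi, and 7.77, 8.78 and 8.50 at 3 dpi. They were 7.35, 7.07 and 6.92 at 7 dpi, 7.19, 6.70 and 7.32 at 14 dpi, then 5.82, 7.26 and 7.70 at 90 dpi. No pool of *per1b* reached the control range at any time, and the lowest signal of all was that of 90 dpi replicate 1. *per1b* (probe set 13231170) had log2 fold changes of -1.77 at 4 hpi, -1.93 at 1 dpi, -2.09 at 7 dpi, -2.13 at 14 dpi and -2.28 at 90 dpi (SE 0.41, limma adjusted p from 0.00115 to 0.00246), and -0.85 at 3 dpi did not pass (adjusted p = 0.117). In log2 units *per3* measured 9.90, 10.02 and 9.83 in the control pools, 8.10, 8.06 and 8.27 at 4 hpi, 8.37, 8.99 and 7.85 at 1 dpi, and 8.57, 9.64 and 9.38 at 3 dpi. Later values were 8.34, 7.85 and 7.91 at 7 dpi, 8.02, 8.09 and 8.25 at 14 dpi, then 7.37, 8.96 and 9.20 at 90 dpi. The *per3* pools (probe set 12976179) were likewise below the controls at all 6 times, nearest to them at 3 dpi. The log2 fold changes were -1.77 at 4 hpi, -1.51 at 1 dpi, -1.88 at 7 dpi, -1.79 at 14 dpi and -1.40 at 90 dpi (SE 0.37, limma adjusted p from 0.00114 to 0.0155), and -0.72 at 3 dpi did not pass (adjusted p = 0.147).

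For *per1a* the log2 signals were 6.76, 7.01 and 7.25 in the control pools, 5.16, 4.90 and 5.51 at 4 hpi, 5.64, 7.08 and 4.72 at 1 dpi, and 6.33, 7.39 and 7.34 at 3 dpi. Later pools gave 5.92, 4.87 and 5.40 at 7 dpi, 4.83, 4.84 and 4.97 at 14 dpi, then 4.91, 5.79 and 6.78 at 90 dpi. At 1 dpi replicate 2 of *per1a* was within the control range and replicates 1 and 3 were far below it, and at 3 dpi replicates 2 and 3 were above all controls. *per1a* (probe set 12968377) was called with log2 fold changes of -1.82 at 4 hpi, -1.61 at 7 dpi and -2.12 at 14 dpi (SE 0.49, limma adjusted p from 0.00733 to 0.0255), and -1.19 at 1 dpi and -1.18 at 90 dpi did not pass (adjusted p = 0.0646 and 0.102). Its low pools reached 4.72 to 5.16, at or under the median of all values. *per2*, which light induces directly in zebrafish cells, had another course. The *per2* log2 signals were 9.41, 9.32 and 9.58 in the control pools, 9.08, 9.05 and 9.52 at 4 hpi, 7.65, 8.15 and 8.13 at 1 dpi, and 8.23, 8.52 and 7.88 at 3 dpi. From 7 dpi on they were 8.27, 8.28 and 8.14 at 7 dpi, 9.45, 8.90 and 8.68 at 14 dpi, then 8.53, 8.36 and 8.33 at 90 dpi. The pools at 4 hpi and 14 dpi overlapped the controls, and those at 1, 3, 7 and 90 dpi lay below them. *per2* (probe set 13092447) had log2 fold changes of -1.46 at 1 dpi, -1.23 at 3 dpi, -1.21 at 7 dpi and -1.03 at 90 dpi (SE 0.20, limma adjusted p from 1.8e-05 to 0.00259). A second *per2* probe set (13084558) gave -0.51, -1.19, -1.14, -1.16, -0.68 and -1.11 from 4 hpi to 90 dpi, all called, so it differed from the first in passing the test at 4 hpi (adjusted p = 0.0393) and 14 dpi (adjusted p = 0.0221). *per1a* lost its call at 7 dpi without control replicate 2 or 3 or 7 dpi replicate 2 or 3 (-1.87 to -1.35, adjusted p up to 0.106). *per3* lost its call at 90 dpi without control replicate 2 or 90 dpi replicate 1 (-1.75 to -0.83, adjusted p up to 0.0507).

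The cryptochromes divided into a group that fell and a group that rose. *cry1a*, *cry1b* and *cry2* carry the names of the family's repressors of the Clock and Bmal pair, and *cry1a* is a light-induced gene in zebrafish. *cry2* had log2 signals of 9.47, 9.29 and 9.04 in the control pools, 8.37, 8.40 and 8.57 at 4 hpi, 7.61, 8.38 and 7.83 at 1 dpi, and 7.77, 8.88 and 8.54 at 3 dpi. In the last 3 groups they were 7.77, 7.48 and 7.50 at 7 dpi, 8.11, 7.81 and 8.06 at 14 dpi, then 7.49, 7.78 and 7.97 at 90 dpi. All pools of *cry2* lay below the controls at all 6 times. The log2 fold changes of *cry2* (probe set 13159591) were -0.82 at 4 hpi, -1.33 at 1 dpi, -0.87 at 3 dpi, -1.69 at 7 dpi, -1.27 at 14 dpi and -1.52 at 90 dpi (SE 0.24, limma adjusted p from 8.3e-05 to 0.0105). Signals of *cry1a* in log2 units were 9.74, 9.94 and 10.02 in the control pools, 9.18, 9.06 and 9.57 at 4 hpi, 8.70, 9.14 and 8.91 at 1 dpi, and 9.04, 9.44 and 9.21 at 3 dpi. After 3 dpi they were 9.18, 9.19 and 9.29 at 7 dpi, 9.64, 9.51 and 9.38 at 14 dpi, then 9.27, 9.49 and 9.47 at 90 dpi. The pools of *cry1a* (probe set 13181116) never reached the control range. Its log2 fold changes were smaller, at -0.63 at 4 hpi, -0.98 at 1 dpi, -0.67 at 3 dpi, -0.68 at 7 dpi and -0.49 at 90 dpi (SE 0.15, limma adjusted p from 5.0e-05 to 0.0293), and -0.39 at 14 dpi did not pass (adjusted p = 0.0898). In log2 units *cry1b* measured 8.63, 8.37 and 8.95 in the control pools, 8.23, 8.42 and 8.70 at 4 hpi, 7.60, 7.71 and 7.15 at 1 dpi, and 7.70, 7.91 and 7.70 at 3 dpi. At the later times they were 8.14, 7.82 and 7.90 at 7 dpi, 8.84, 8.29 and 8.17 at 14 dpi, then 7.82, 8.17 and 8.38 at 90 dpi. *cry1b* pools were below the controls at 1 dpi, 3 dpi and 7 dpi and overlapped them at 4 hpi, 14 dpi and 90 dpi. Log2 fold changes of *cry1b* (probe set 13057038) were -1.16 at 1 dpi, -0.88 at 3 dpi and -0.70 at 7 dpi (SE 0.21, limma adjusted p from 2.3e-04 to 0.0208).

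*cry-dash* belongs to the DASH branch of the family, relatives of the light-driven DNA repair enzymes. For *cry-dash* the log2 signals were 7.33, 7.40 and 6.99 in the control pools, 7.04, 6.85 and 7.03 at 4 hpi, 5.71, 6.35 and 5.58 at 1 dpi, and 5.98, 6.54 and 6.84 at 3 dpi. Pools of the later times gave 5.58, 5.74 and 6.00 at 7 dpi, 6.23, 5.45 and 6.07 at 14 dpi, then 5.79, 6.16 and 6.41 at 90 dpi. Its pools overlapped the controls at 4 hpi, and all later pools lay below the controls. *cry-dash* (probe set 13150307) had log2 fold changes of -1.36 at 1 dpi, -0.79 at 3 dpi, -1.46 at 7 dpi, -1.32 at 14 dpi and -1.12 at 90 dpi (SE 0.25, limma adjusted p from 3.2e-04 to 0.02), and -0.26 at 4 hpi did not pass (adjusted p = 0.434).

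*cry3a*, *cry3b* and *cry4* rose instead. The *cry3a* log2 signals were 10.08, 10.13 and 10.56 in the control pools, 10.47, 10.63 and 10.33 at 4 hpi, 10.41, 10.06 and 10.59 at 1 dpi, and 10.44, 10.17 and 10.11 at 3 dpi. They were 10.84, 10.86 and 10.89 at 7 dpi, 11.10, 11.19 and 10.92 at 14 dpi, then 11.21, 11.26 and 11.05 at 90 dpi. *cry3a* pools (probe set 13245016) overlapped the controls up to 3 dpi and stood above them from 7 dpi on. The log2 fold changes were 0.60 at 7 dpi, 0.81 at 14 dpi and 0.91 at 90 dpi (SE 0.15, limma adjusted p from 0.00105 to 0.00821). *cry3b* had log2 signals of 8.22, 8.27 and 8.76 in the control pools, 9.35, 9.44 and 9.34 at 4 hpi, 8.10, 7.73 and 8.53 at 1 dpi, and 7.95, 7.51 and 7.07 at 3 dpi. Later values were 8.60, 8.92 and 9.00 at 7 dpi, 9.35, 9.45 and 8.97 at 14 dpi, then 9.49, 9.26 and 8.79 at 90 dpi. *cry3b* was above the controls at 4 hpi, below them at 3 dpi and above them again at 14 and 90 dpi. *cry3b* (probe set 13119140) had log2 fold changes of 0.96 at 4 hpi, -0.91 at 3 dpi, 0.84 at 14 dpi and 0.76 at 90 dpi (SE 0.24, limma adjusted p from 0.00448 to 0.0356). Signals of *cry4* in log2 units were 6.32, 6.38 and 6.44 in the control pools, 6.76, 7.11 and 7.34 at 4 hpi, 6.19, 5.79 and 6.42 at 1 dpi, and 6.25, 6.07 and 5.86 at 3 dpi. Later pools gave 6.80, 6.86 and 6.75 at 7 dpi, 7.50, 7.12 and 6.96 at 14 dpi, then 6.97, 6.97 and 6.49 at 90 dpi. The *cry4* pools (probe set 13124999) stood above the controls at 4 hpi, 7 dpi, 14 dpi and 90 dpi and below them at 3 dpi. The differences that passed were at 4 hpi and 14 dpi, with log2 fold changes of 0.68 at 4 hpi and 0.81 at 14 dpi (SE 0.19, limma adjusted p from 0.00771 to 0.0084). Of the cryptochromes, 6 had calls that no longer passed with 1 pool left out. *cry2* lost its call at 3 dpi without 3 dpi replicate 1 (-1.11 to -0.56, adjusted p up to 0.0554). *cry1a* lost its call at 90 dpi without control replicate 2 or 3 or 90 dpi replicate 1, 2 or 3 (-0.57 to -0.42, adjusted p up to 0.106). *cry1b* lost its call at 7 dpi without control replicate 3 or 7 dpi replicate 2 or 3 (-0.84 to -0.55, adjusted p up to 0.107). *cry-dash* lost its call at 3 dpi without control replicate 1 or 2 or 3 dpi replicate 1 (-0.98 to -0.55, adjusted p up to 0.121). *cry3b* lost its call at 14 dpi without control replicate 1 or 2 or 14 dpi replicate 1 or 2 (0.74 to 1.01, adjusted p up to 0.0957) and at 90 dpi without control replicate 1 or 2 or 90 dpi replicate 1 or 2 (0.61 to 0.96, adjusted p up to 0.112). *cry4* lost its call at 14 dpi without 14 dpi replicate 1 (0.65 to 0.92, adjusted p up to 0.0508).

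Rev-erb receptors repress the Bmal genes, and *nr1d1* (Rev-erb alpha) had the largest fall of the 38 genes at 7, 14 and 90 dpi. In log2 units *nr1d1* measured 9.06, 9.57 and 9.47 in the control pools, 6.36, 6.53 and 7.53 at 4 hpi, 6.55, 8.81 and 5.92 at 1 dpi, and 7.47, 9.62 and 9.34 at 3 dpi. From 7 dpi on they were 6.92, 5.32 and 5.89 at 7 dpi, 5.05, 5.63 and 6.41 at 14 dpi, then 4.96, 5.86 and 8.20 at 90 dpi. Pools lay below the controls at every time but 3 dpi, where replicates 2 and 3 were within reach of the controls and replicate 1 was not. Log2 fold changes of *nr1d1* (probe set 13166611) were -2.56 at 4 hpi, -2.27 at 1 dpi, -3.32 at 7 dpi, -3.67 at 14 dpi and -3.03 at 90 dpi (SE 0.79, limma adjusted p from 0.0053 to 0.0306), the fall at 14 dpi being 12.7-fold. At 1 and 90 dpi the pools differed widely, with replicate 2 far above the others at 1 dpi and replicate 3 at 90 dpi. Some low pools, at 5.05 and 4.96, were under the median of all values.

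For *nr1d2b* the log2 signals were 9.66, 9.64 and 9.55 in the control pools, 7.88, 8.04 and 8.49 at 4 hpi, 8.73, 8.98 and 8.27 at 1 dpi, and 8.90, 9.58 and 9.42 at 3 dpi. In the last 3 groups they were 8.88, 8.71 and 8.70 at 7 dpi, 7.93, 8.49 and 8.76 at 14 dpi, then 7.82, 8.98 and 9.21 at 90 dpi. *nr1d2b*, a Rev-erb beta paralog (probe set 13068566), stood below the controls at every time but 3 dpi. Its log2 fold changes were -1.48 at 4 hpi, -0.96 at 1 dpi, -0.85 at 7 dpi, -1.23 at 14 dpi and -0.95 at 90 dpi (SE 0.30, limma adjusted p from 8.7e-04 to 0.0498), of which that at 7 dpi was lost with median centring (adjusted p = 0.0562) and that at both 7 and 90 dpi with quantile normalization (adjusted p = 0.0668 and 0.0503). The other beta paralog, *nr1d2a*, was called at no time, with pools from 7.90 to 10.42 and log2 fold changes from -0.55 at 7 dpi to 0.81 at 4 hpi. *nr1d4b*, a Rev-erb paralog found in fish, rose. The *nr1d4b* log2 signals were 4.55, 4.26 and 4.23 in the control pools, 5.83, 5.26 and 5.33 at 4 hpi, 4.59, 4.52 and 4.41 at 1 dpi, and 4.43, 4.09 and 4.23 at 3 dpi. After 3 dpi they were 4.43, 4.35 and 5.04 at 7 dpi, 4.82, 4.75 and 4.66 at 14 dpi, then 6.10, 5.99 and 5.36 at 90 dpi. It stood above the controls at 4 hpi, 14 dpi and 90 dpi. The log2 fold changes of *nr1d4b* (probe set 12977236) that passed were 1.12 at 4 hpi and 1.47 at 90 dpi (SE 0.20, limma adjusted p from 3.3e-04 to 4.1e-04), and all control signals were under the median of all values. Only 90 dpi replicate 1, at 6.10, exceeded the log2 signal of 6 needed for testing. *nr1d4b* thus entered the tests through the group where it was highest, and its calls are only a description. *nr1d1* lost its call at 4 hpi without 4 hpi replicate 1 (-2.92 to -2.34, adjusted p up to 0.0572), at 1 dpi without control replicate 2 or 3 or 1 dpi replicate 1 or 3 (-3.13 to -1.69, adjusted p up to 0.144), and at 90 dpi without 90 dpi replicate 1 or 2 (-3.95 to -2.34, adjusted p up to 0.065). It had -3.13 at 1 dpi without 1 dpi replicate 2, and at 90 dpi -3.95 without 90 dpi replicate 3 and -2.34 without 90 dpi replicate 1. *nr1d2b* lost its call at 1 dpi without 1 dpi replicate 3 (-1.12 to -0.76, adjusted p up to 0.0863), at 7 dpi without control replicate 1, 2 or 3 or 7 dpi replicate 1, 2 or 3 (-0.91 to -0.82, adjusted p up to 0.12), at 14 dpi without 14 dpi replicate 1 (-1.41 to -0.99, adjusted p up to 0.066), and at 90 dpi without control replicate 1, 2 or 3 or 90 dpi replicate 1 or 2 (-1.22 to -0.52, adjusted p up to 0.152).

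The *ciart* genes (Chrono) encode repressors that bind the Clock and Bmal pair in mouse. *ciartb* had log2 signals of 9.76, 9.95 and 9.72 in the control pools, 8.69, 8.46 and 9.20 at 4 hpi, 8.49, 9.17 and 8.10 at 1 dpi, and 8.65, 9.59 and 9.23 at 3 dpi. At the later times they were 8.29, 8.04 and 8.12 at 7 dpi, 8.71, 8.06 and 8.08 at 14 dpi, then 7.46, 7.57 and 8.55 at 90 dpi. *ciartb* pools were below the controls at all times. *ciartb* (probe set 13162192) had log2 fold changes of -1.03 at 4 hpi, -1.23 at 1 dpi, -1.66 at 7 dpi, -1.53 at 14 dpi and -1.95 at 90 dpi (SE 0.31, limma adjusted p from 8.3e-04 to 0.0144), and -0.66 at 3 dpi did not pass (adjusted p = 0.112). Signals of *ciarta* in log2 units were 8.76, 8.99 and 9.06 in the control pools, 6.75, 7.71 and 7.86 at 4 hpi, 7.40, 8.64 and 6.68 at 1 dpi, and 8.28, 9.13 and 9.43 at 3 dpi. Pools of the later times gave 7.70, 6.50 and 6.79 at 7 dpi, 6.38, 6.59 and 7.12 at 14 dpi, then 5.17, 6.62 and 8.40 at 90 dpi. The *ciarta* pools at 90 dpi spread from replicate 1, the lowest of all 21, to replicate 3, near the controls. *ciarta* (probe set 13073160) was called from 7 dpi on, with log2 fold changes of -1.94 at 7 dpi, -2.24 at 14 dpi and -2.20 at 90 dpi (SE 0.62, limma adjusted p from 0.0205 to 0.0315), and the values of -1.49 at 4 hpi and -1.36 at 1 dpi did not pass (adjusted p = 0.0651 and 0.0928).

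*bhlhe41* (Dec2), which competes with the Clock and Bmal pair for E-boxes, was lower at 90 dpi alone. In log2 units *bhlhe41* measured 9.18, 9.51 and 9.29 in the control pools, 7.32, 7.65 and 9.64 at 4 hpi, 8.73, 9.12 and 8.85 at 1 dpi, and 8.58, 9.43 and 9.12 at 3 dpi. They were 9.11, 8.68 and 8.52 at 7 dpi, 10.41, 9.63 and 8.91 at 14 dpi, then 7.62, 7.53 and 8.13 at 90 dpi. At 4 hpi replicates 1 and 2 were far under the controls and replicate 3 above them, and at 90 dpi all pools were under them. The log2 fold change of *bhlhe41* (probe set 13057249) was -1.56 at 90 dpi (SE 0.45, limma adjusted p = 0.0239). Its relative *bhlhe40* (Dec1) was not called at any time, with log2 fold changes from -0.50 at 4 hpi to 0.23 at 14 dpi. The casein kinase genes *csnk1da* and *csnk1db*, whose products mark Period proteins for destruction, had the smallest log2 fold changes of the list, from -0.26 to 0.07, and no call against control. *ciartb* lost its call at 4 hpi without 4 hpi replicate 2 (-1.24 to -0.87, adjusted p up to 0.0628). *ciarta* lost its call at 7 dpi without control replicate 1, 2 or 3 or 7 dpi replicate 2 or 3 (-2.29 to -1.69, adjusted p up to 0.113), at 14 dpi without control replicate 2 or 3 or 14 dpi replicate 1 or 2 (-2.45 to -2.08, adjusted p up to 0.079), and at 90 dpi without control replicate 2 or 3 or 90 dpi replicate 1 or 2 (-3.04 to -1.42, adjusted p up to 0.0818). The value at 90 dpi was -3.04 without 90 dpi replicate 3 and -1.42 without 90 dpi replicate 1. *bhlhe41* lost its call at 90 dpi without control replicate 2 or 3 or 90 dpi replicate 1 or 2 (-1.75 to -1.45, adjusted p up to 0.0911).

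Among the output factors, the D-box activators fell and a D-box repressor rose. For *dbpa* the log2 signals were 8.98, 8.71 and 8.97 in the control pools, 5.79, 6.04 and 6.98 at 4 hpi, 6.25, 7.49 and 6.42 at 1 dpi, and 7.05, 8.06 and 7.60 at 3 dpi. Later values were 6.84, 6.62 and 6.36 at 7 dpi, 6.99, 6.85 and 6.41 at 14 dpi, then 6.18, 6.64 and 7.05 at 90 dpi. Not 1 pool of *dbpa* came within the control range, and the nearest, at 8.06, was replicate 2 at 3 dpi. *dbpa* (probe set 13073330) had log2 fold changes of -2.62 at 4 hpi, -2.17 at 1 dpi, -1.32 at 3 dpi, -2.28 at 7 dpi, -2.14 at 14 dpi and -2.27 at 90 dpi (SE 0.34, limma adjusted p from 1.5e-05 to 0.00613), the first a 6.13-fold fall, and all 6 calls held with any 1 pool left out. The *dbpb* log2 signals were 9.23, 8.88 and 8.70 in the control pools, 7.70, 7.90 and 7.83 at 4 hpi, 7.76, 8.42 and 7.45 at 1 dpi, and 7.97, 8.64 and 8.79 at 3 dpi. Later pools gave 8.16, 7.90 and 8.26 at 7 dpi, 7.69, 7.75 and 8.28 at 14 dpi, then 8.27, 8.93 and 8.83 at 90 dpi. Its paralog *dbpb* (probe set 13037020) was below the controls at 4 hpi, 1 dpi, 7 dpi and 14 dpi and overlapped them at 3 dpi and 90 dpi. Log2 fold changes that passed were -1.13 at 4 hpi, -1.06 at 1 dpi, -0.83 at 7 dpi and -1.03 at 14 dpi (SE 0.26, limma adjusted p from 0.00216 to 0.0274).

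*tefb* had log2 signals of 8.25, 7.98 and 7.68 in the control pools, 7.68, 7.92 and 8.03 at 4 hpi, 6.86, 7.16 and 6.45 at 1 dpi, and 6.79, 7.29 and 7.22 at 3 dpi. From 7 dpi on they were 6.87, 6.47 and 6.63 at 7 dpi, 7.08, 7.13 and 6.71 at 14 dpi, then 6.31, 7.59 and 7.55 at 90 dpi. The *tefb* pools overlapped the controls at 4 hpi and lay below them at all later times. Log2 fold changes of *tefb* (probe set 13164490), a paralog of the Tef gene, were -1.15 at 1 dpi, -0.87 at 3 dpi, -1.31 at 7 dpi, -1.00 at 14 dpi and -0.82 at 90 dpi (SE 0.28, limma adjusted p from 0.0027 to 0.0482), and the call at 90 dpi was lost with either scaling alternative (adjusted p = 0.0531 with median centring and 0.0528 with quantile normalization). Signals of *tefa* in log2 units were 9.49, 9.38 and 8.81 in the control pools, 8.43, 8.65 and 8.54 at 4 hpi, 8.06, 8.62 and 7.90 at 1 dpi, and 8.56, 9.22 and 9.09 at 3 dpi. In the last 3 groups they were 8.56, 8.62 and 8.70 at 7 dpi, 7.96, 8.45 and 8.38 at 14 dpi, then 8.06, 8.90 and 8.73 at 90 dpi. *tefa* (probe set 12991054) stood below the controls at 4 hpi, 1 dpi, 7 dpi and 14 dpi. Its log2 fold changes were -0.69 at 4 hpi, -1.03 at 1 dpi and -0.96 at 14 dpi (SE 0.24, limma adjusted p from 0.00256 to 0.0325). In log2 units *hlfa* measured 10.02, 9.88 and 10.07 in the control pools, 9.52, 9.85 and 9.84 at 4 hpi, 9.17, 9.25 and 9.13 at 1 dpi, and 9.19, 9.21 and 8.99 at 3 dpi. After 3 dpi they were 9.56, 9.51 and 9.91 at 7 dpi, 10.04, 10.04 and 9.64 at 14 dpi, then 9.67, 10.03 and 9.56 at 90 dpi. *hlfa*, a paralog of the Hlf gene (probe set 13172722), was below the controls at 4 hpi, 1 dpi and 3 dpi. Only 1 and 3 dpi passed, with log2 fold changes of -0.81 at 1 dpi and -0.86 at 3 dpi (SE 0.15, limma adjusted p from 2.4e-04 to 3.8e-04). *dbpb* lost its call at 7 dpi without control replicate 1 or 2 or 7 dpi replicate 1 or 2 (-0.95 to -0.68, adjusted p up to 0.106) and at 14 dpi without control replicate 1 or 14 dpi replicate 1 (-1.22 to -0.89, adjusted p up to 0.0589). *tefb* lost its call at 3 dpi without control replicate 1 or 2 or 3 dpi replicate 1 (-1.01 to -0.72, adjusted p up to 0.0956), at 14 dpi without control replicate 1 or 2 or 14 dpi replicate 1 or 3 (-1.14 to -0.86, adjusted p up to 0.0945), and at 90 dpi without control replicate 1, 2 or 3 or 90 dpi replicate 1 (-1.04 to -0.40, adjusted p up to 0.208). *tefa* lost its call at 4 hpi without control replicate 1 or 2 or 4 hpi replicate 1 or 3 (-0.90 to -0.56, adjusted p up to 0.125) and at 14 dpi without control replicate 1 or 2 or 14 dpi replicate 1 (-1.17 to -0.81, adjusted p up to 0.0694).

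*nfil3-5*, 1 of several zebrafish paralogs of the D-box repressor Nfil3, had the largest rise of the 38 genes at 4 hpi and from 7 to 90 dpi. For *nfil3-5* the log2 signals were 5.72, 6.25 and 8.03 in the control pools, 9.18, 9.00 and 9.76 at 4 hpi, 8.05, 6.48 and 9.17 at 1 dpi, and 7.19, 6.15 and 6.29 at 3 dpi. At the later times they were 9.08, 8.80 and 8.95 at 7 dpi, 10.20, 9.93 and 10.00 at 14 dpi, then 10.25, 9.34 and 8.61 at 90 dpi. Control replicate 3 stood far above the other control pools, and still every pool at 4 hpi and from 7 dpi on was above it. Log2 fold changes of *nfil3-5* (probe set 13218636) were 2.65 at 4 hpi, 2.27 at 7 dpi, 3.38 at 14 dpi and 2.73 at 90 dpi (SE 0.59, limma adjusted p from 0.00123 to 0.0105), the rise at 14 dpi being 10.4-fold. Without control replicate 3 they were 3.33, 2.96, 4.06 and 3.42 at the same times. At 1 dpi replicate 2 was at 6.48 and replicate 3 at 9.17, and the log2 fold change of 1.23 did not pass (adjusted p = 0.112). The call at 7 dpi was lost without control replicate 1 (1.80 to 2.96, adjusted p up to 0.0562). *nfil3* and *nfil3-6* were called at no time, with log2 fold changes from -0.06 to 0.84 and from -0.40 to 0.61.

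**Figure D3:**
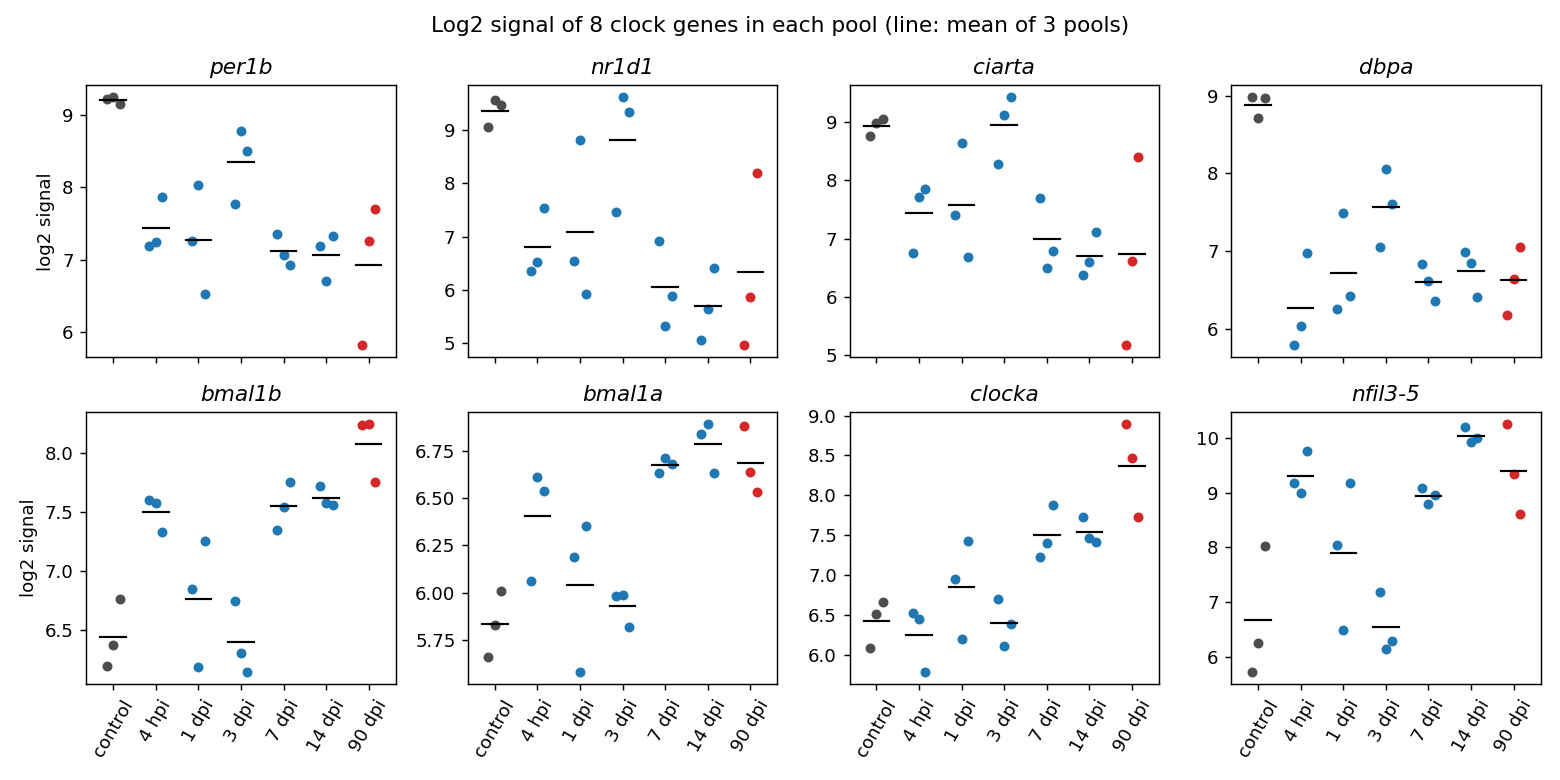
Log2 signal of 8 clock genes in each pool (points) with the mean of the 3 pools (line), for control (dark grey), 4 hpi to 14 dpi (blue) and 90 dpi (red); the vertical scale differs between panels and does not start at 0. The upper genes lie below control and the lower ones, *clocka* at 4 hpi excepted, above it at 4 hpi and from 7 dpi on, and the pools of *nr1d1* are spread most widely at 1, 3 and 90 dpi.

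Over all 7 groups, the moderated F test of limma called 32 of the 38 genes (65.2% of all features were called). The 6 that it did not call were *nr1d2a*, *bhlhe40*, *csnk1da*, *csnk1db*, *nfil3* and *nfil3-6*, the same that no comparison with control called.

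Each time was also compared with the one before it. From 4 hpi to 1 dpi 13 clock genes changed (34.4% of all features were called). *rorab* was the 1 that rose, by 0.54 (adjusted p = 0.00436), and the 12 that fell included *npas2* with a log2 fold change of -1.39 (adjusted p = 0.00762), *cry3b* with -1.26 (adjusted p = 5.4e-04) and *per2* with -1.23 (adjusted p = 1.1e-04). From 1 to 3 dpi 0 of 38 genes were called by limma (3.99% of all features), with 14 at an unadjusted p under 0.05, and without 1 dpi replicate 2 the count was 3. Over all features that fit called 1044 in place of 1428. From 3 to 7 dpi 9 genes rose and 2 fell (6.97% of all features). The activating genes *bmal1b*, *clocka* and *bmal1a* were among the 9, with log2 fold changes of 1.15, 1.10 and 0.74 (adjusted p = 0.00616, 0.0425 and 0.0186), and *nfil3-5* had 2.40 (adjusted p = 0.0204). The 2 that fell, both listed in the repressing arm, were *nr1d1* with -2.77 (adjusted p = 0.0425) and *cry2* with -0.82 (adjusted p = 0.0436). This count of 11 fell with any 1 pool of the 3 and 7 dpi groups left out. It was 7 without 3 dpi replicate 1 or 7 dpi replicate 2, 4 without 3 dpi replicate 2, 3 without 7 dpi replicate 1, and 2 without 3 dpi replicate 3 or 7 dpi replicate 3. Over all features these fits called 921 to 2295 in place of 2494. From 7 to 14 dpi only *per2* changed, by 0.78 (adjusted p = 0.0489, with 2.38% of all features called), and the count was 0 without any 1 of the 7 dpi pools or without 14 dpi replicate 1 or 2, and 2 without 14 dpi replicate 3. Over all features these fits called 131 to 598 in place of 852.

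From 14 to 90 dpi 4 clock genes changed (11.3% of all features). *nr1d4b*, *clockb* and *rorab* rose by 1.07, 0.54 and 0.43 (adjusted p = 0.00444, 0.0116 and 0.0468), and *bhlhe41* had a log2 fold change of -1.89 (adjusted p = 0.0153). The count was 7 without 90 dpi replicate 1, 2 without 14 dpi replicate 1 and 1 without 90 dpi replicate 2, and it was 0 in the fit of only the 6 arrays compared. Over all features those fits called 4776, 1574, 1481 and 11 in place of 4052. At 90 dpi against control, the activating arm had 6 of 9 genes higher and 0 lower, and the repressing arm 3 of 21 higher and 11 lower (11.2% of all features were higher and 7.68% lower). *rorab* and *roraa*, in contrast, were no longer called at 90 dpi.

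Pools of the same group differed more in clock genes than in most other features. The median residual standard deviation was 0.346 for the 38 genes and 0.235 for all tested features, 28 of the 38 were above the median feature and 11 were in the highest 10 percent. *nr1d1* had a residual standard deviation of 1.07, *ciarta* 0.84, *nfil3-5* 0.80, *per1a* 0.66 and *bhlhe41* 0.61. *csnk1db*, *csnk1da* and *clockb*, with 0.12, 0.13 and 0.13, were the steadiest. The extra spread was not even over the groups. Within a group, the median standard deviation of clock genes was 2.17 times that of all features at 1 dpi, 1.84 at 3 dpi and 1.85 at 90 dpi, and 1.12 to 1.16 times in the other 4 groups.

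**Figure D4:**
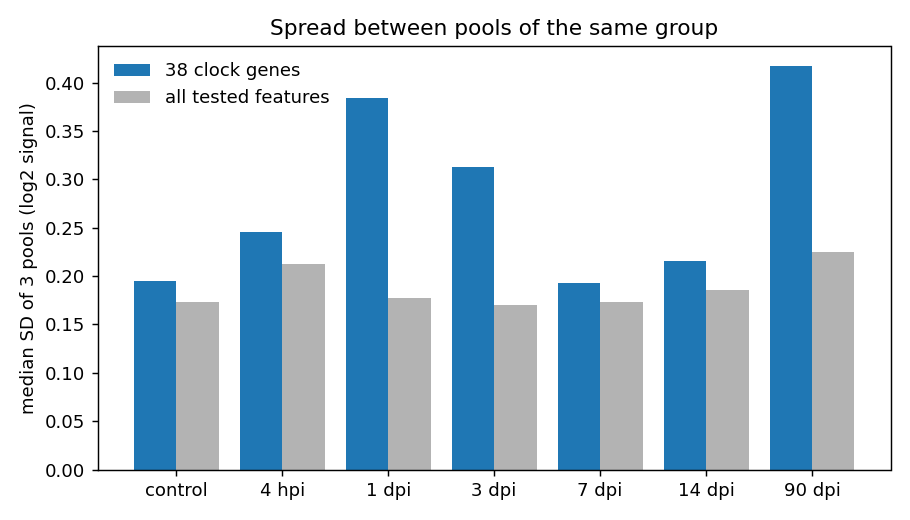
Median standard deviation of the log2 signal between the 3 pools of a group, for the 38 clock genes (blue) and all 35783 tested features (grey). Clock genes reached 0.384 at 1 dpi, 0.313 at 3 dpi and 0.417 at 90 dpi, where all features stood at 0.177, 0.170 and 0.225, and the bars are of like height in the other groups.

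In these 3 groups several clock genes differed together between the pools. At 1 dpi replicate 2 stood apart, with *nr1d1* at 8.81, *ciarta* at 8.64 and *per1a* at 7.08, near the controls, and *nfil3-5* at 6.48, within the control range. At 3 dpi replicate 1 was the pool farther from control, with *nr1d1* at 7.47 where the others had 9.62 and 9.34. At 90 dpi replicate 3 was the pool nearest to control, with *nr1d1* at 8.20 and *ciarta* at 8.40, while replicate 1 was at 4.96 and 5.17. No single pool stood apart there in all of these genes: *ciarta* was spread evenly, with 6.62 in replicate 2, and for *per1b*, *per3*, *tefb* and *bmal2* replicate 1 was the pool far from the others. In all 7 groups the pool with the lowest *nr1d1* also had the lowest *ciarta*, and in 6 of 7 it had the lowest *per1a* and *dbpb* and the highest *bmal2*. These were the most extreme members, and others followed *nr1d1* less. That pool had the lowest *dbpa* in 3 groups and the highest in 2, and the lowest *cry2* in 4 and the highest in 2. It had the lowest *per2* in 0 groups and the highest in 3. *nr1d1* was taken as the reference, and the genes were picked, after their values were seen, so these counts are a description.

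Genes around the clock were called in both directions, in part at shares near those of all features. Of 5 tested paralogs of clock genes outside the list, *nfil3-2* rose at 5 of the 6 times, with log2 fold changes of 2.50 at 4 hpi and 3.46 at 90 dpi (SE 0.37, limma adjusted p = 5.5e-05 and 1.0e-04), and *csnk1e*, a kinase of Period proteins, rose by 1.70 at 4 hpi (SE 0.22, adjusted p = 1.2e-05). Among 27 genes of clock protein turnover and chromatin, 5, 3, 2, 0, 3 and 2 were higher from 4 hpi to 90 dpi. They made up 18.5%, 11.1%, 7.41%, 0%, 11.1% and 7.41%, against 21.3%, 22.0%, 20.7%, 14.5%, 9.39% and 11.2% of all features. Those lower numbered 7, 5, 8, 5, 2 and 4. They made up 25.9%, 18.5%, 29.6%, 18.5%, 7.41% and 14.8%, against 17.5%, 16.5%, 14.9%, 8.02%, 4.57% and 7.68% of all features. *gsk3bb*, a kinase gene of the Gsk3 family, had 2.27 at 4 hpi (adjusted p = 1.1e-07), and *fbxl3a*, whose product targets cryptochromes for degradation in mouse, had 1.21 at 90 dpi (adjusted p = 0.00115). *gsk3aa* fell, with -1.15 at 3 dpi (adjusted p = 4.7e-05). Of 22 rhythmic output genes, those higher numbered 8, 1, 1, 2, 2 and 2 from 4 hpi to 90 dpi, and those lower 5, 11, 12, 9, 5 and 3. The lower ones made up 22.7%, 50%, 54.5%, 40.9%, 22.7% and 13.6%, against 17.5%, 16.5%, 14.9%, 8.02%, 4.57% and 7.68% of all features. The higher ones made up 36.4% at 4 hpi, against 21.3%, and 4.55% to 9.09% later, against 9.39% to 22.0%. *klf11b* and *ucp3* rose at 4 hpi, with log2 fold changes of 3.07 and 2.62 (adjusted p = 7.2e-06 and 1.2e-05). The 2 output genes with a larger moderated statistic at 4 hpi both fell, by log2 fold changes of -3.06 and -1.70 (limma adjusted p = 1.3e-06 and 1.5e-06). *klf11b* was also higher at 14 and 90 dpi, with 1.75 and 1.77 (adjusted p = 0.00512 and 0.00454). *noctb*, a paralog of the deadenylase-like Nocturnin gene, had -1.50 at 1 dpi (adjusted p = 4.5e-07). *aanat2*, the enzyme of melatonin synthesis in the pineal gland, had -1.17 at 90 dpi (adjusted p = 8.6e-04), at a control mean of 6.50. The median log2 fold change of these output genes ran from 0.15 at 4 hpi to -0.66 at 3 dpi and -0.19 at 90 dpi.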

How the data were processed

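Total RNA of 21 ventricle pools was hybridised to Affymetrix Zebrafish Gene 1.0 ST arrays. The authors summarised the scans in Partek by RMA, a robust averaging over the probes of a feature, corrected for GC content, and deposited 1 log2 signal per feature and array. No further transformation was applied, and each of the 21 columns was matched to its sample by label, with 0 columns unused. Gene symbols came from the platform annotation, in which 20806 of 75212 features carry a single symbol and 855 several, and features with several symbols were given no gene.

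A single linear model of the 7 groups was fitted with limma 3.58.1 in R 4.3.3 to the 35783 features with a log2 signal over 6 in at least 1 array, with 14 residual degrees of freedom and Benjamini-Hochberg adjustment over all of these features in each comparison. The code was tested on simulated data. Precision is limited by the 3 pools of a group. Signals in every pool are given for genes called by the F test and by at least 1 comparison with control at a 1.6-fold change or more (0.68 on the log2 scale), and other members are given by range. At most 4 genes are named from each further list. They were picked from the 4 called genes with the largest moderated statistic at the time described, and not all of those are named. The members, the lists (paralogs, turnover and chromatin, rhythmic output, light-induced and glucocorticoid genes, and markers of cardiomyocytes, leukocytes, neutrophils, macrophages, erythrocytes, endothelium, and fibroblasts and epicardium) and the tests were chosen with earlier results of these data known. Alternatives were the signal filter, quantile normalization, median centring, the variance model, fits of only the arrays compared, a replicate block, the mean of all probe sets of a gene, other thresholds, and leaving out each pool in turn. Promoter sequences were not analysed here. A tested clock gene that is not reported here by name stays in the counts and medians. Replicate numbers were not taken as pairs: of 63 pairs of pools with the same number 13 correlated above 0.1 in their deviations from the group means. Figures were drawn with matplotlib.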

Additional observations from a re-analysis of the deposited data

Results flagged for a closer look

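The log2 signal differed between successive times after injury, by the limma test of that difference, for the genes below. Values are log2 fold changes of the later over the earlier time. At 1 dpi over 4 hpi, the activating genes *rorab*, *bmal1b* and *npas2* had 0.54, -0.74 and -1.39 (adjusted p = 0.00436, 0.0181 and 0.00762). In the same step *per2*, *cry1b*, *cry3b*, *cry4*, *cry-dash* and *nr1d4b*, listed in the repressing arm, had -1.23, -0.96, -1.26, -0.93, -1.09 and -0.97 (adjusted p from 1.1e-04 to 0.00224). The kinase gene *csnk1db* had -0.33 (adjusted p = 0.037). The output genes *tefb*, *hlfa* and *nfil3-6* had -1.06, -0.55 and -0.79 (adjusted p from 0.00662 to 0.0362). The share of clock genes called in this step, 13 of 38, was near that of all features (34.4%).

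At 7 dpi over 3 dpi, *clocka*, *bmal1a* and *bmal1b* had 1.10, 0.74 and 1.15, and the cryptochromes *cry3a*, *cry3b* and *cry4* had 0.63, 1.33 and 0.74 (adjusted p from 0.0034 to 0.0425). *cry2* and *nr1d1*, also listed in the repressing arm, had -0.82 and -2.77 (adjusted p = 0.0436 and 0.0425). The output genes *hlfa* and *nfil3-5* had 0.53 and 2.40 (adjusted p = 0.0429 and 0.0204). This step called 11 of 38 clock genes where 6.97% of all features were called, but between 2 and 7 with 1 pool of either group left out. Over all features those fits called 921 to 2295 in place of 2494. At 14 dpi over 7 dpi *per2* had 0.78 (adjusted p = 0.0489). At 90 dpi over 14 dpi *clockb*, *rorab*, *nr1d4b* and *bhlhe41* had 0.54, 0.43, 1.07 and -1.89 (adjusted p from 0.00444 to 0.0468).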

How the results depend on the processing

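Against control, 122 calls of clock genes were made over the 6 times, and 0 of them changed direction under any alternative run. Of the 122, quantile normalization lost 3, median centring 2, no signal filter 5, the fit of only the arrays compared 13, the replicate block 1 (*tefb* at 90 dpi), and the mean of all probe sets and the other variance model 0. The stricter signal filter, which tests 120 of them and not the 2 of *nr1d4b*, lost 0. Leaving out 1 pool, with the tested features kept the same, lost 127 of 732. Without 1 pool the counts ranged from 19 to 21 at 4 hpi, from 17 to 24 at 1 dpi and from 9 to 13 at 3 dpi. They ranged from 16 to 22 at 7 dpi, where the full fit had 24, from 15 to 21 at 14 dpi and from 14 to 23 at 90 dpi. Over all features the range was 11686 to 12470 at 4 hpi, 11701 to 12264 at 1 dpi and 10249 to 11633 at 3 dpi. At the later times it was 5750 to 6801 at 7 dpi, 3077 to 4149 at 14 dpi and 3045 to 7734 at 90 dpi. The full fit called 13906, 13788, 12719, 8073, 4995 and 6770 features. Without 1 dpi replicate 2 the clock genes at 1 dpi numbered 24 in place of 18, and all features 12023. Between successive times the counts of clock genes ranged from 0 to 3 for 3 dpi over 1 dpi, from 2 to 7 for 7 dpi over 3 dpi, from 0 to 2 for 14 dpi over 7 dpi, and from 1 to 7 for 90 dpi over 14 dpi. Over all features these ranges were 916 to 1475, 921 to 2295, 131 to 598 and 1481 to 4776. The full fit called 1428, 2494, 852 and 4052. At an adjusted p under 0.001 the counts against control were 6, 9, 4, 4, 1 and 6 from 4 hpi to 90 dpi, 21 by the F test, 3 for 1 dpi over 4 hpi, and 0 for 7 over 3, 14 over 7 and 90 over 14 dpi. Over all 35783 features the counts against control were 5170, 5767, 5140, 1685, 660 and 419. They were 5088, 108, 2 and 120 for these 4 steps. The F test was not counted over all features at this threshold. In the fit of only the arrays compared the counts were 23, 20, 13, 27, 23 and 13 from 4 hpi to 90 dpi. Over all features that fit called 11473, 13083, 12248, 7074, 3270 and 2229, in place of 13906, 13788, 12719, 8073, 4995 and 6770. From 4 hpi to 7 dpi the counts of clock genes thus rose and those of all features fell. The counts of clock genes were 0 for 14 over 7 dpi and 0 for 90 over 14 dpi. Over all features these last comparisons called 5 and 11 in place of 852 and 4052. That fit has fewer residual degrees of freedom, and the part of this in the counts was not tested. The calls at 90 dpi that it lost were those of *clockb*, *bmal2*, *per3*, *cry1a*, *cry3b*, *nr1d1*, *nr1d2b*, *ciarta*, *tefb* and *nfil3-5* (limma adjusted p from 0.055 to 0.191). It also lost *bmal1a* at 4 hpi, *cry2* at 3 dpi and *roraa* at 14 dpi (adjusted p = 0.0534, 0.0513 and 0.089). No signal filter gave 7 for 7 over 3 dpi and 0 for 14 over 7 dpi (2458 and 655 over all features). The mean of all probe sets gave 0 for 14 over 7 dpi (851 over all features). A 1.6-fold limit gave 2 for 90 over 14 dpi (2229 over all features). The cause was not tested. With the replicate number as a block the count for 14 over 7 dpi was 0 (663 over all features), and the other counts of clock genes stayed within 1.5 times. Same-numbered pools had a median correlation of 0.01 in their deviations from the group means. By mean correlation, 9 of 21 pools were closest to the pools of their own number. The paper speaks of independent experiments, and whether the numbers mark these was not tested. Signals near the array median limit how large a fall of *per1a* or *nr1d1* and a rise of *bmal2* or *nr1d4b* could be measured.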

Other observations

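Genes that light induces in zebrafish tissue were lower in part. Of 4 tested genes outside the clock list, 1 was lower at 4 hpi, 3 at 1 dpi, 2 at 3 dpi, 3 at 7 dpi, 2 at 14 dpi and 0 at 90 dpi, and 0 were higher at any time. Over all features 17.5%, 16.5%, 14.9%, 8.02%, 4.57% and 7.68% were lower. *ddb2*, a DNA damage recognition gene, had a log2 fold change of -1.69 at 4 hpi (SE 0.30, limma adjusted p = 2.5e-04). *lonrf1* and *fech*, the gene of the enzyme that completes heme, had -1.14 and -1.08 at 1 dpi (SE 0.24 each, adjusted p = 9.4e-04 and 0.00147).

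Of 13 tested genes of the glucocorticoid response, those higher numbered 5, 0, 2, 1, 2 and 2 from 4 hpi to 90 dpi, and those lower 2, 3, 2, 0, 0 and 1. The higher ones made up 38.5%, 0%, 15.4%, 7.69%, 15.4% and 15.4%, against 21.3%, 22.0%, 20.7%, 14.5%, 9.39% and 11.2% of all features. The lower ones made up 15.4%, 23.1% and 15.4% at 4 hpi, 1 dpi and 3 dpi, against 17.5%, 16.5% and 14.9% of all features, and 7.69% at 90 dpi, against 7.68%. At 4 hpi the receptor genes *nr3c2* and *nr3c1* had log2 fold changes of -1.29 and -0.81 (SE 0.16 and 0.14, limma adjusted p = 7.1e-06 and 2.1e-04), and *zbtb16b* and *sgk1*, a kinase gene induced by corticoids, had 1.93 and 0.91 (SE 0.34 and 0.18, adjusted p = 2.8e-04 and 7.4e-04). The median log2 fold change of the 13 genes was 0.66 at 4 hpi and between -0.29 and 0.21 at the later times.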
